A study of Homo sapiens with 9 samples.

Results

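The genes described here are 10 zinc transporters, 5 of the SLC30 family (SLC30A1, SLC30A5, SLC30A6, SLC30A7 and SLC30A9) and 5 of the SLC39 family (SLC39A1, SLC39A6, SLC39A7, SLC39A10 and SLC39A14). They were taken by name from 56865 genes summed from the transcript tables, and all 10 were among the 13914 genes with enough reads to test. Their estimated read counts ran from 561 to 5309 in a library. Poly(A)-selected RNA of cells labelled BxPC3, a human pancreatic adenocarcinoma line, was sequenced in 3 libraries each with MS172, PK9328 or the vehicle DMSO. The genotype given for all 3 groups, controls included, is p53Y220C/-. The treatment protocol gives 5 µM of compound for 6 h, but it names MS78 where the titles and treatment labels name MS172, so the dose and time of MS172 rest on a protocol with another compound name. The series design asks how expression differs between MS172 and DMSO, and PK9328 was given to the same cells as another compound.

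Proteins of the SLC30 family, also called ZnT, move zinc out of the cytosol, either across the plasma membrane or into organelles. Proteins of the SLC39 family, also called ZIP, move zinc the other way, into the cytosol. Cells keep free cytosolic zinc low, and the zinc-sensing transcription factor MTF1 binds short DNA motifs called metal response elements near the genes for metallothioneins, which bind zinc, and near SLC30A1. In mouse, the same factor represses the gene of the importer Zip10, the counterpart of SLC39A10.

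Library totals ranged from 24077353 to 28031886 estimated reads. The mean length of the sequenced fragments was 274.1 to 292.8 bases with MS172, 249.5 to 263.0 bases with PK9328 and 281.2 to 289.1 bases with DMSO, and every PK9328 library was below the rest. Of 20 ductal and epithelial marker genes, 12 were under 1 CPM (read counts scaled to the library size) in every library. Among them were the defining genes EPCAM, at most 0.0745 CPM, and CDH1, at most 0.0417 CPM. Others of the list were abundant, with DMSO means of KRT18 at 785 CPM, KRT8 at 732 CPM, KRT19 at 311 CPM, SOX9 at 289 CPM and CLDN4 at 122 CPM. The markers were thus mixed, and the cell type is given only as labelled. The summed level of these 20 markers was 2631 to 2796 CPM with MS172, 2020 to 2101 CPM with PK9328 and 2168 to 2336 CPM with DMSO. Of 17 mesenchymal markers, 9 were under 1 CPM in every library. VIM at 9391 CPM and COL1A2 at 2416 CPM made up most of their mean sum of 12472 CPM with DMSO. The summed level of these 17 markers was 13055 to 13569 CPM with MS172, 10504 to 10750 CPM with PK9328 and 12343 to 12541 CPM with DMSO. Both sums differed between the groups without overlap, and their part in the results below was not tested. Nothing in the labels tells whether replicates were grown apart, and p-values therefore reflect only the spread between these libraries, which may be technical. In bulk RNA, fewer cells expressing a gene and less RNA per cell cannot be told apart.

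With MS172, the plasma membrane exporter SLC30A1 rose to 1.88-fold its level with DMSO and the importer SLC39A10 fell to 0.58-fold. Of the 10 transporters, 5 rose, 2 fell and 3 did not pass the test, at an adjusted p under 0.05 (edgeR quasi-likelihood test, Benjamini-Hochberg adjustment over all genes tested). In the same comparison 35.1% of all genes tested passed, 17.9% higher and 17.2% lower. The median log2 fold change of the 10 genes was 0.07, against -0.02 over all genes tested, and the median size of the change was 0.17, against 0.16. By median size of change the 10 genes thus moved about as much as the typical gene, though a larger share of them passed. SLC30A1 and SLC39A10 changed most among them. With fragment length as a covariate 7 of the 10 genes passed as well. SLC30A1 had the 131st highest fold change of 13914 genes and SLC39A10 the 488th lowest.

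**Figure D1:**
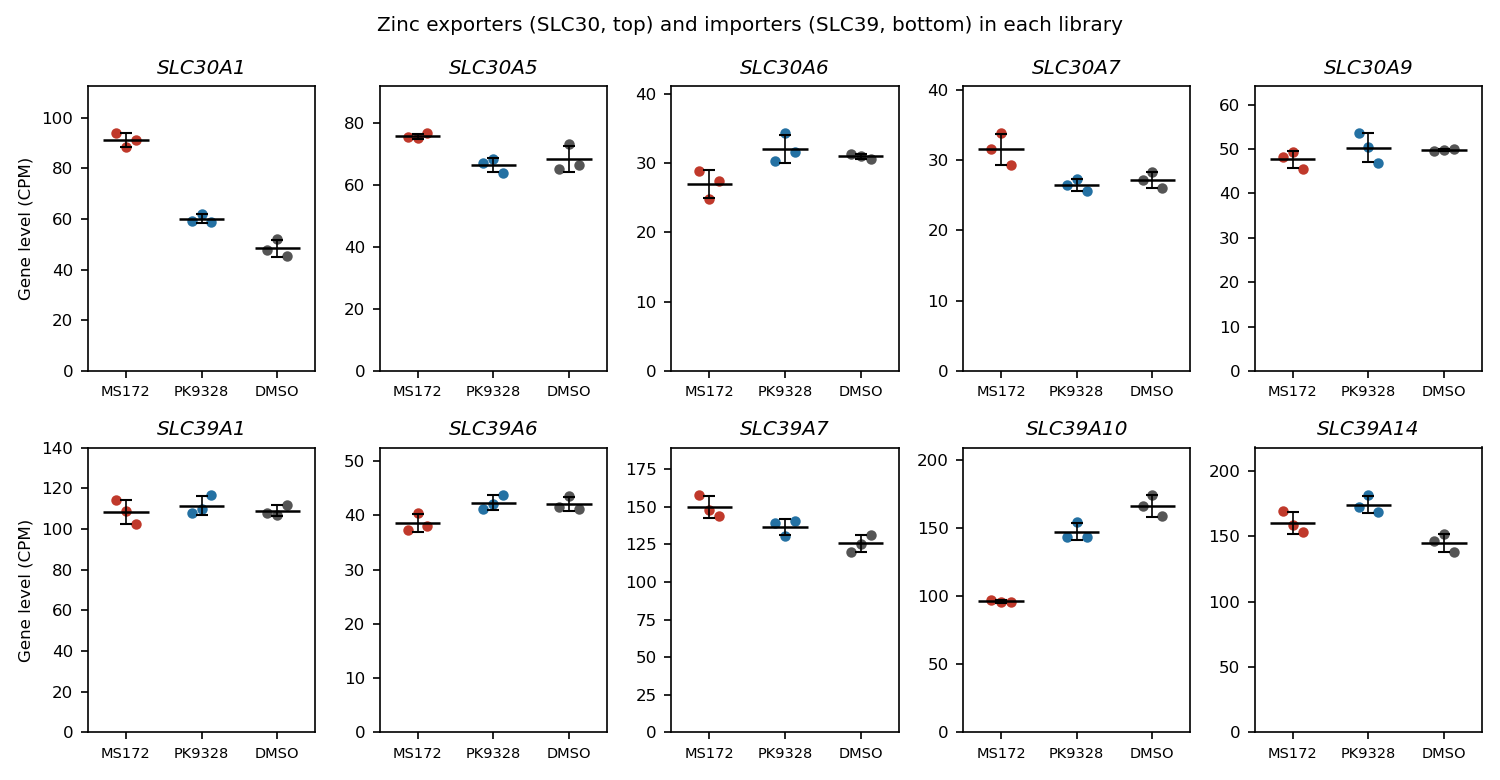
Level of each zinc transporter gene (CPM, vertical axis starting at 0) in each library with MS172, PK9328 and DMSO, with exporters in the top row and importers in the bottom row; points are libraries and lines are group means. SLC30A1 was highest and SLC39A10 lowest in the 3 MS172 libraries, with PK9328 between MS172 and DMSO for both genes.

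SLC30A1 encodes ZnT1, which exports zinc across the plasma membrane, and lies on chromosome 1, at chr1:211571568-211578742 on the minus strand (GRCh38, GENCODE 29). It had 93.8, 88.5 and 91.2 CPM with MS172, 59.4, 62.1 and 59.0 CPM with PK9328, and 47.6, 52.2 and 45.3 CPM with DMSO. The groups formed 3 separate bands, with every MS172 library above every PK9328 library and every PK9328 library above every DMSO library. The log2 fold change of MS172 over DMSO was 0.91 ± 0.05 (SE, n = 3 each, 95% interval 0.81 to 1.01, adjusted p = 4.1e-15, edgeR). That call held in all 19 alternative settings, with log2 fold changes of 0.87 to 0.97. The gene has 1 annotated transcript here, with 2 exons and 5474 bases, so its value does not depend on how reads were split between transcripts.

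SLC39A10 encodes ZIP10, a plasma membrane importer, and lies on chromosome 2, at chr2:195575977-195737702 on the plus strand. It had 97.1, 95.7 and 95.4 CPM with MS172, 143.6, 154.4 and 143.6 CPM with PK9328, and 165.7, 174.1 and 158.4 CPM with DMSO. The MS172 libraries lay close together and well under the lowest library of the other groups. The log2 fold change of MS172 over DMSO was -0.79 ± 0.04 (SE, n = 3 each, 95% interval -0.87 to -0.71, adjusted p = 1.6e-15, edgeR), and this call also held in all 19 alternatives.

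The promoters of these 2 genes are shown because they moved most and in opposite directions, and because metal response elements are known near SLC30A1. The windows run from 250 bases before to 50 bases after the start in RefSeq (GRCh38.p14), 5′ to 3′ on the strand of the gene. The RefSeq starts differ from those of the GENCODE 29 transcripts, and for SLC30A1 the window lies upstream of the GENCODE gene. SLC30A1 is at chr1:211579112-211579411 on the minus strand, and the second of the SLC39A10 promoters in the table is at chr2:195656976-195657275 on the plus strand. Capitals mark matches to the core of the metal response element, TGCACNC or TGCGCNC, searched on both strands with no overlap between the matches.
SLC30A1 promoter: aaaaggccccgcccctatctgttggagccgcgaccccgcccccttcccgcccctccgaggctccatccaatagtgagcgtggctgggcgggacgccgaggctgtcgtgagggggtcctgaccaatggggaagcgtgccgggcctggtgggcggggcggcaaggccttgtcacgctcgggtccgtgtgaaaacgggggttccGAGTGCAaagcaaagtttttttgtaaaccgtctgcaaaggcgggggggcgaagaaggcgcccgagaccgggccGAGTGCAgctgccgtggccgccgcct
SLC39A10 promoter: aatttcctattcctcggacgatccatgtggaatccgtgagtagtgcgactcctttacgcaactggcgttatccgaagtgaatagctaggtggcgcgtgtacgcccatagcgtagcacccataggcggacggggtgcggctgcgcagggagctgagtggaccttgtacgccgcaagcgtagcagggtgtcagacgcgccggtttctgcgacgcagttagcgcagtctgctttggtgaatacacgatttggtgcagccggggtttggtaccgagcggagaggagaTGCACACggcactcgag

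The SLC30A1 window held 2 matches, both on the opposite strand, at -49 to -43 and 24 to 30 counted from the start base as 0. The SLC39A10 window held 1 match on the same strand, at 33 to 39, and the first SLC39A10 promoter in the table held 0. Over all 35116 promoter windows, 29.6% held at least 1 match and 8.6% at least 2. Over the 20945 windows of coding genes these shares were 34.0% and 10.4%. Promoters were in the table for 9 of the 10 genes, with 11 windows, and 5 windows of 5 genes held a match; the other 3 genes with one were SLC30A6, SLC39A1 and SLC39A6. For comparison, MT1X held 4 matches and MT2A 8, and 0.6% of all windows held at least 4. A match describes the letters and is not a measured binding site.

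The transporters that load zinc into the secretory pathway moved less and in different directions with MS172. SLC30A5, which works as a heteromer with SLC30A6, had 75.5, 75.3 and 76.7 CPM with MS172 and 65.4, 73.2 and 66.4 CPM with DMSO, a log2 fold change of 0.15 ± 0.05 (SE, adjusted p = 0.014, edgeR). The ranges did not overlap, but the DMSO library with 73.2 CPM came close to the MS172 libraries. SLC30A6 fell, with 28.9, 24.9 and 27.4 CPM with MS172 and 31.4, 31.0 and 30.7 CPM with DMSO, a log2 fold change of -0.20 ± 0.06 (SE, adjusted p = 0.015, edgeR). The partners of the heteromer thus changed in opposite directions, by small amounts. SLC30A7, a Golgi zinc transporter, had 31.5, 33.8 and 29.3 CPM with MS172 and 27.2, 28.3 and 26.1 CPM with DMSO, a log2 fold change of 0.21 ± 0.06 (SE, adjusted p = 0.0083, edgeR). These 3 calls each depended on single libraries: SLC30A5 had an adjusted p of 0.0875 without DMSO replicate 1 and 0.0592 without DMSO replicate 3, SLC30A6 had 0.12 and SLC30A7 had 0.0751 without MS172 replicate 2. SLC30A6 also had an adjusted p of 0.235 with counts rebuilt from length-scaled TPM (transcript abundance scaled to length and library).

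SLC30A9, a mitochondrial zinc transporter, did not pass the test with MS172. It had 48.3, 49.3 and 45.6 CPM with MS172 and 49.6, 49.8 and 50.1 CPM with DMSO, a log2 fold change of -0.06 (95% interval -0.17 to 0.04, adjusted p = 0.38, edgeR). The MS172 libraries lay just under the DMSO libraries. Groups that do not overlap were seen in 44.7% of all genes tested in this comparison.

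Among the importers, SLC39A7 rose and SLC39A14 rose slightly with MS172. SLC39A7, or ZIP7, releases zinc from the endoplasmic reticulum into the cytosol, and had 157.9, 148.0 and 144.0 CPM with MS172 and 120.1, 125.4 and 131.5 CPM with DMSO. Every MS172 library was above every DMSO library, with a log2 fold change of 0.26 ± 0.04 (SE, 95% interval 0.17 to 0.34, adjusted p = 2.2e-05, edgeR). This is the sum over its transcripts, of which only SLC39A7-204, which has no coding part, passed for itself, as given below. SLC39A14, or ZIP14, carries iron and manganese as well as zinc across the plasma membrane, and had 169.2, 158.2 and 152.9 CPM with MS172 and 146.2, 151.4 and 137.7 CPM with DMSO. The lowest MS172 library was only just above the highest DMSO library, and the log2 fold change was 0.14 ± 0.04 (SE, adjusted p = 0.01, edgeR). The SLC39A14 call was lost without MS172 replicate 1 (adjusted p = 0.105), without DMSO replicate 3 (0.0802) and with length-scaled TPM (0.172).

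SLC39A1 and SLC39A6, both plasma membrane importers, did not pass the test with MS172. SLC39A1, or ZIP1, had 114.2, 108.9 and 102.6 CPM with MS172 and 107.9, 107.2 and 112.1 CPM with DMSO, with a log2 fold change of -0.01 (95% interval -0.09 to 0.08, adjusted p = 0.93, edgeR). The groups overlapped fully. SLC39A6, or ZIP6, had 37.3, 40.4 and 38.1 CPM with MS172 and 41.6, 43.7 and 41.2 CPM with DMSO, with a log2 fold change of -0.13 (95% interval -0.24 to -0.02, adjusted p = 0.058, edgeR). Its MS172 libraries were all below the DMSO libraries, and the test passed with a filter of 1 CPM in 3 libraries (adjusted p = 0.0474), with length-scaled TPM (0.0219) and without MS172 replicate 2 (0.0412). SLC39A1 overlaps CREB3L4 on the opposite strand by 651 bases, and SLC39A7 overlaps RXRB by 244 bases. Whether the quantification used strand is not given in the sources used here, so reads in those bases cannot be told apart, with CREB3L4 at 3.80 to 5.66 CPM and RXRB at 51.9 to 56.9 CPM.

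With PK9328, 3 of the 10 transporters rose against DMSO (SLC30A1, SLC39A7 and SLC39A14), 1 fell (SLC39A10) and 6 did not pass the test, where 15.5% of all genes tested passed, 7.98% higher and 7.48% lower. The median size of the log2 fold change was 0.05 over the 10 genes and 0.11 over all genes tested. SLC30A1 was 1.24-fold higher, with a log2 fold change of 0.31 ± 0.05 (SE, 95% interval 0.21 to 0.42, adjusted p = 4.8e-05, edgeR). SLC39A10 was at 0.89-fold, with a log2 fold change of -0.17 ± 0.04 (SE, adjusted p = 0.0025, edgeR). For both genes every PK9328 library lay on the MS172 side of every DMSO library, as groups did not overlap in 31.3% of all genes tested. Both comparisons use the same DMSO libraries.

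SLC39A14 was the importer that rose most with PK9328. It had 172.4, 181.5 and 168.5 CPM with PK9328 and 146.2, 151.4 and 137.7 CPM with DMSO, a log2 fold change of 0.26 ± 0.04 (SE, 95% interval 0.18 to 0.35, adjusted p = 5.8e-05, edgeR). The ranges were well apart. SLC39A7 had 139.0, 130.8 and 140.4 CPM with PK9328 and 120.1, 125.4 and 131.5 CPM with DMSO, a log2 fold change of 0.12 ± 0.04 (SE, adjusted p = 0.047, edgeR). Its groups overlapped, and the call was lost in 11 of 19 alternatives, among them DESeq2 (adjusted p = 0.0718) and leaving out DMSO replicate 1 (0.246), DMSO replicate 2 (0.0839), MS172 replicate 2 (0.0612), PK9328 replicate 1 (0.151) or PK9328 replicate 3 (0.169).

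The remaining 6 genes lay close to their DMSO levels with PK9328, with log2 fold changes between -0.04 and 0.05. SLC30A5 had 67.2, 68.3 and 64.0 CPM, SLC30A6 30.4, 34.3 and 31.6 CPM, and SLC30A7 26.5, 27.3 and 25.5 CPM with PK9328. SLC30A9 had 53.5, 50.4 and 46.9 CPM, SLC39A1 108.1, 109.7 and 116.8 CPM, and SLC39A6 41.2, 42.2 and 43.8 CPM. Each of these 6 overlapped its own DMSO range, and the widest 95% intervals of the log2 fold change ended at -0.17 and 0.17. With fragment length as a covariate, 0 of the 10 genes passed in this comparison (2 at an unadjusted p under 0.05, edgeR), among 178 genes passing in all. The log2 fold changes were then 0.30 for SLC30A1, 0.23 for SLC39A14 and -0.13 for SLC39A10 (adjusted p = 0.146, 0.231 and 0.554), close to those without the covariate, while SLC39A7 had -0.061 (adjusted p = 0.808). Shorter fragments and PK9328 cannot be told apart by group, since all 3 PK9328 libraries had them.

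**Figure D2:**
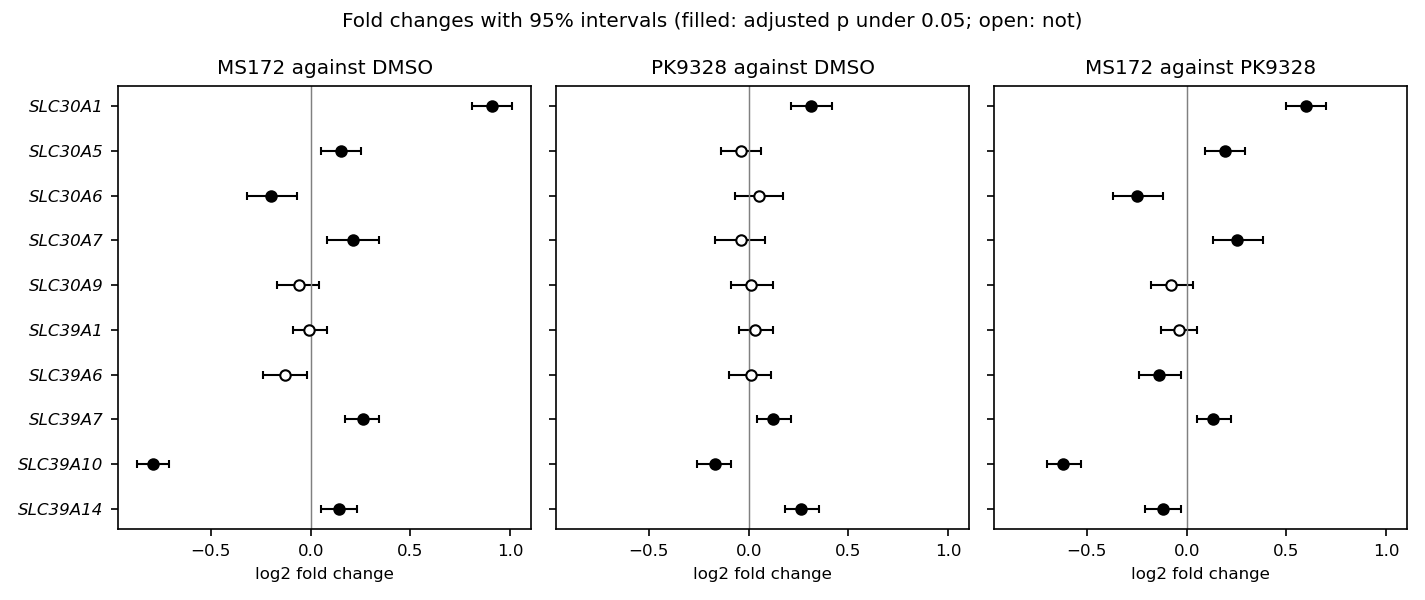
log2 fold change (horizontal axis) of each zinc transporter gene with its 95% interval for MS172 against DMSO, PK9328 against DMSO and MS172 against PK9328; filled points passed an adjusted p under 0.05 and open points did not. SLC30A1 at 0.91 and SLC39A10 at -0.79 lie apart from the other genes with MS172, and SLC30A1 at 0.31 and SLC39A14 at 0.26 are the highest with PK9328.

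Set directly against PK9328, MS172 gave higher levels of 4 transporters and lower levels of 4, where 47.7% of all genes tested passed, 23.3% higher and 24.4% lower. That the dose and time were the same rests on the protocol that names MS78. SLC30A1 was 1.51-fold higher with MS172 than with PK9328, a log2 fold change of 0.60 ± 0.05 (SE, 95% interval 0.50 to 0.70, adjusted p = 2.3e-11, edgeR). SLC39A10 was at 0.65-fold, a log2 fold change of -0.62 ± 0.04 (SE, 95% interval -0.70 to -0.53, adjusted p = 3.5e-13, edgeR). Neither gene's groups overlapped, as in 55.4% of all genes tested, and both held their calls in all 19 alternatives. SLC30A7 (log2 fold change 0.25), SLC30A5 (0.19) and SLC39A7 (0.13) were also higher with MS172, with adjusted p of 0.0012, 0.0014 and 0.0094 (edgeR).

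SLC30A6 (log2 fold change -0.25, adjusted p = 0.0016), SLC39A6 (-0.14, 0.034) and SLC39A14 (-0.12, 0.019) were lower with MS172 than with PK9328 by the same test. The SLC39A14 ranges of the 2 compounds overlapped, with means of 160.1 ± 8.3 CPM with MS172 and 174.1 ± 6.7 CPM with PK9328 (SD, n = 3 each). SLC30A9 and SLC39A1 did not pass, with 95% intervals of the log2 fold change of -0.18 to 0.03 and -0.13 to 0.05. Calls lost with single libraries left out were SLC39A6 (MS172 replicate 1 or 3, PK9328 replicate 2 or 3), SLC39A14 (MS172 replicate 2 or 3, PK9328 replicate 2) and SLC39A7 (MS172 replicate 1, PK9328 replicate 2). Those of SLC30A5 and SLC30A7 were lost with length-scaled TPM (adjusted p = 0.0766 and 0.0597, edgeR). The count of 8 genes dropped to 5 without PK9328 replicate 2 and to 3 with fragment length as a covariate.

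The shares of the gene's TPM held by its transcripts are given for SLC39A10 as values, without a test of the shares. The coding transcript SLC39A10-201 held 33.0%, 30.8% and 32.9% of the gene's TPM with MS172, 61.3%, 71.4% and 71.3% with PK9328, and 58.7%, 57.2% and 53.0% with DMSO. The transcript SLC39A10-205, annotated as a target of nonsense-mediated decay, held 56.3%, 54.4% and 52.1% with MS172, 23.5%, 15% and 14.6% with PK9328, and 26.0%, 23.1% and 34.8% with DMSO. In every MS172 library the decay-type transcript had the larger share of the pair, and in every PK9328 and DMSO library the coding one did. The PK9328 and DMSO ranges overlapped for SLC39A10-205.

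Both transcripts run over chr2:195657128-195737702 and differ in a single block. SLC39A10-205 lacks 844 bases of exon 2 of SLC39A10-201, at chr2:195680049-195680892 on the plus strand, and 844 is not a multiple of 3. It has 11 exons, 4478 bases and a coding part of 117 bases, while SLC39A10-201 has 10 exons, 5322 bases and 2493 coding bases. The edges of the block are shown from GENCODE 29, because these are the bases that tell the transcripts apart. Capitals mark the bases that only SLC39A10-201 has, with 15 bases on each side, and the block begins with GT and ends with AG, as most introns do.
SLC39A10-201, 5′ edge: aaaatagaaatgaagGTACATATGCACACA
SLC39A10-201, 3′ edge: ATGTACATCTTCCAGaacgtaatggtcatg
SLC39A10-205, junction: aaaatagaaatgaagaacgtaatggtcatg

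SLC39A10-201 had 8.19 ± 0.44 TPM with MS172, 27.8 ± 2.5 TPM with PK9328 and 26.4 ± 4.2 TPM with DMSO (SD, n = 3 each). It fell with MS172 by a log2 fold change of -1.54 ± 0.10 (SE, adjusted p = 0.00036, edgeR over 39248 transcripts). That call held in 12 of 12 alternatives, none of which had fragment length as a covariate. The fall of SLC39A10-201 was larger than that of the whole gene. With PK9328 its log2 fold change against DMSO was 0.00 (adjusted p = 1). SLC39A10-205 had 13.8 ± 0.46 TPM with MS172, 7.24 ± 2.14 TPM with PK9328 and 12.9 ± 1.3 TPM with DMSO. It did not pass against DMSO, with log2 fold changes of 0.24 for MS172 (adjusted p = 0.57) and -0.90 for PK9328 (adjusted p = 0.086), and it was higher with MS172 than with PK9328 by 1.15 ± 0.19 (SE, adjusted p = 0.0074, edgeR). All bases of SLC39A10-205 are also in SLC39A10-201, and the error of assigning reads between them is not part of the test.

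**Figure D3:**
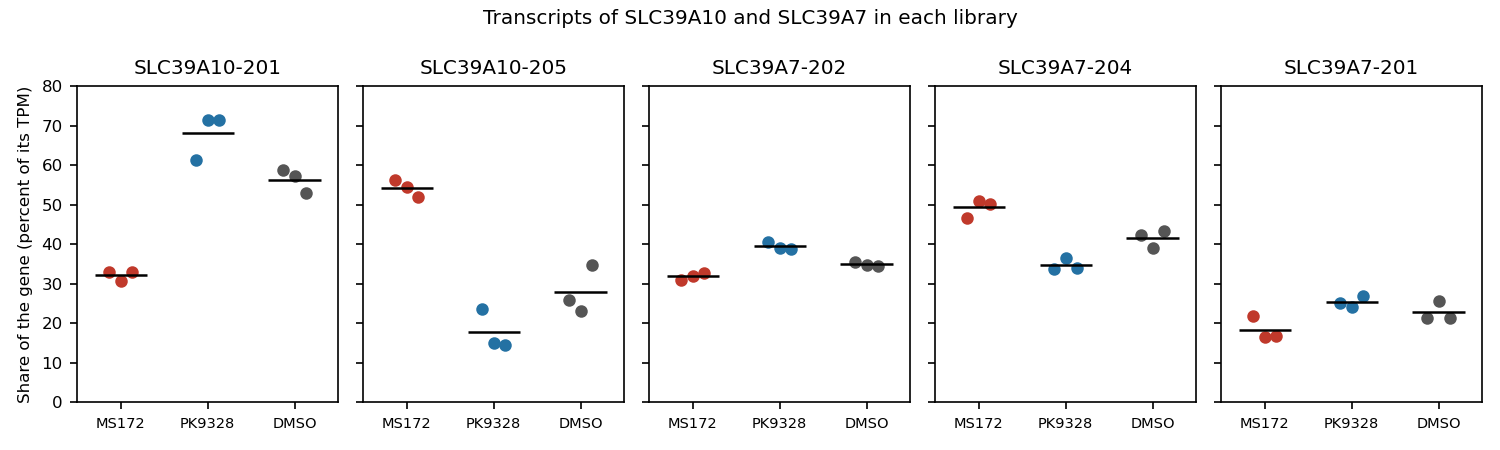
Share of the gene's TPM (percent, vertical axis starting at 0) held by transcripts of SLC39A10 and SLC39A7 in each library with MS172, PK9328 and DMSO; points are libraries and lines are group means. SLC39A10-201 held 32.2% with MS172, 68.0% with PK9328 and 56.3% with DMSO on average, and SLC39A10-205 held 54.3%, 17.7% and 28% in these groups.

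Of 67 annotated transcripts of the 10 genes, 37 had enough reads to test. With MS172 against DMSO 3 rose and 1 fell, where 5.07% of all transcripts tested passed, 3.12% higher and 1.95% lower. SLC30A1-201 rose as the only transcript of its gene, and SLC39A7-204, a transcript with no coding part, rose by a log2 fold change of 0.55 ± 0.06 (SE, adjusted p = 0.0037, edgeR). The coding transcripts SLC39A7-201 and SLC39A7-202 did not pass, with log2 fold changes of 0.01 and 0.17 (adjusted p = 0.99 and 0.065, edgeR). SLC39A7-204 held 46.7%, 51.0% and 50.2% of the gene's TPM with MS172, 33.8%, 36.6% and 33.9% with PK9328, and 42.4%, 39.2% and 43.4% with DMSO. It is 1410 bases long and has 8 bases that the 2 coding transcripts SLC39A7-201 and SLC39A7-202 lack, so its share rests on few distinguishing bases. Its share was highest with MS172 and lowest with PK9328, and the part of fragment length in that order was not tested.

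The third transcript that rose with MS172, SLC30A5-206, is a fragment with no bases of its own and was called in 2 of 12 alternatives. With PK9328 against DMSO 0 of the 37 transcripts passed by edgeR (5 at an unadjusted p under 0.05), where 0.838% of all transcripts did, 0.306% higher and 0.533% lower. The count was 2 without DMSO replicate 2 and 1 without PK9328 replicate 1. Between MS172 and PK9328 5 were higher (SLC30A1-201, SLC30A5-202, SLC30A7-203, SLC39A7-204 and SLC39A10-205) and 2 lower (SLC39A6-204 and SLC39A10-201), where 12.5% of all transcripts passed, 7.37% higher and 5.11% lower. SLC30A5-202 and SLC30A7-203 were called in 6 of 12 alternatives each and SLC39A6-204 in 8 of 12. Without MS172 replicate 1 that count of 7 became 4. SLC39A14-203 and SLC39A14-204, which carry alternative versions of exon 4 of 170 bases each, were not called in any comparison. SLC39A14-203 held 40.9% ± 2.0 with MS172, 39.2% ± 3.3 with PK9328 and 35.8% ± 2.3 with DMSO (SD, n = 3 each).

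Per length, and summed over all transcripts of a gene, importers of the SLC39 family held the first 4 places among the 10 genes. With DMSO the order was SLC39A7 with 90.5 ± 3.7 TPM, SLC39A1 with 71.2 ± 2.1, SLC39A10 with 46.8 ± 5.8, SLC39A14 with 40.6 ± 3.9, SLC30A5 with 31.1 ± 1.3 and SLC30A9 with 18.8 ± 0.52 TPM (SD, n = 3). SLC39A6 with 17.0 ± 0.86, SLC30A1 with 11.0 ± 1.2, SLC30A6 with 8.58 ± 0.39 and SLC30A7 with 4.54 ± 0.48 TPM followed. The sums hold transcripts with no coding part, SLC39A7-204 (37.6 TPM with DMSO) and SLC30A9-203 (3.60). They also hold those annotated for nonsense-mediated decay, SLC39A10-205 (12.9) and SLC30A9-205 (8.48). The order is therefore not one of coding RNA. Only the neighbours SLC39A10 and SLC39A14 had overlapping DMSO ranges, and the highest gene was 19.9 times the lowest. With MS172 SLC39A10 moved to the fifth place and SLC30A1 to the sixth, while SLC39A7 and SLC39A1 kept the first places and SLC30A6 and SLC30A7 the last.

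The 5 SLC30 genes summed to 80.6 ± 0.21 TPM with MS172, 83.8 ± 3.9 TPM with PK9328 and 74.0 ± 2.5 TPM with DMSO. The 5 SLC39 genes summed to 241.8 ± 7.2 TPM with MS172, 281.4 ± 3.8 TPM with PK9328 and 266.1 ± 13.1 TPM with DMSO (SD, n = 3 each). On the TPM scale the median gene lay at a log2 ratio of -0.18 for MS172 over DMSO, 0.05 for PK9328 over DMSO and -0.24 for MS172 over PK9328, so TPM values are read relative to that shift. SLC30A1 had a log2 TPM ratio of 0.76 and SLC39A10 of -0.88 for MS172 over DMSO. SLC39A14 had -0.04 there, above the median gene, and its log2 fold change from counts was 0.14.

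**Figure D4:**
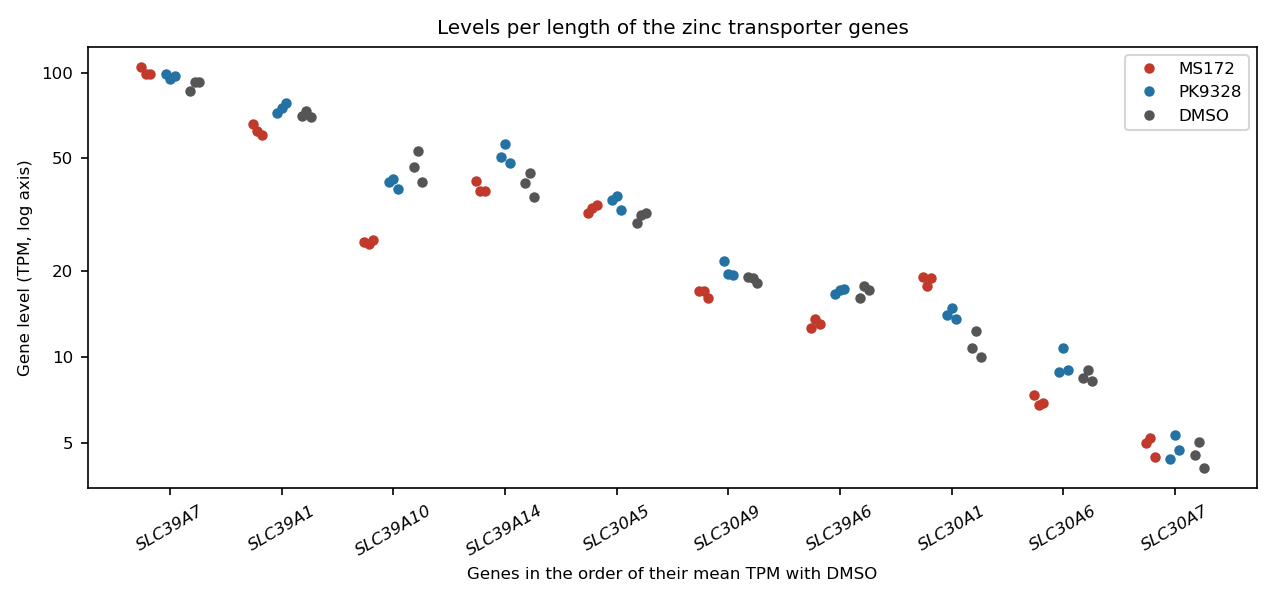
Level per length (TPM, log axis) of each zinc transporter gene in each library with MS172, PK9328 and DMSO, with genes ordered by their mean with DMSO; points are libraries. SLC39A10 drops and SLC30A1 rises among their neighbours in the MS172 libraries.

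Of 14 other genes listed from both families, 7 were under 1 CPM in every library. Among these were SLC30A10, a manganese exporter, at 0 reads throughout, and SLC39A8, at most 0.0367 CPM. Others lay within the range of the 10 per length, with DMSO means of SLC39A4 at 86.4 ± 4.8 TPM and SLC39A3 at 49.0 ± 0.88 TPM (SD, n = 3). All SLC39 genes summed to 449.2 ± 13.3 TPM with DMSO, against 266.1 ± 13.1 TPM for the 5 described here. Of the 7 tested, 3 rose and 0 fell with MS172 against DMSO (edgeR; median log2 fold change 0.16), where 35.1% of all genes passed and 17.9% were higher, namely SLC39A11 (0.24, adjusted p = 0.0016), SLC39A4 (0.17, adjusted p = 0.03) and SLC39A3 (0.14, adjusted p = 0.038). SLC39A13, which lies in vesicle and Golgi membranes, had a log2 fold change of 0.16 (adjusted p = 0.053). With PK9328 1 of the 7 fell and 0 rose, where 15.5% of all genes passed, 7.98% higher and 7.48% lower. It was SLC39A3, with a log2 fold change of -0.19 (adjusted p = 0.016, edgeR). Between MS172 and PK9328 4 of the 7 were higher with MS172 and 0 lower, where 47.7% of all genes passed, 23.3% higher and 24.4% lower. SLC39A3 had a log2 fold change of 0.33 there (adjusted p = 8.6e-06, edgeR).

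The metallothioneins, which bind zinc and copper, were higher with MS172 than with DMSO beside SLC30A1. Of 12 listed genes, MTF1 included, 6 were tested, 4 rose and 0 fell, where 35.1% of all genes passed, with a median log2 fold change of 1.59 over the 6. MT1X rose by a log2 fold change of 2.27, MT1M by 1.72, MT1E by 1.55 and MT2A by 1.31, with adjusted p between 6.4e-18 and 3.4e-10 (edgeR). MT1A had a log2 fold change of 1.62 (adjusted p = 0.08), and MTF1 itself had 0.01 (adjusted p = 0.9). With PK9328 1 of the 6 rose and 1 fell, where 15.5% of all genes passed, 7.98% higher and 7.48% lower. MTF1 rose by 0.21 (adjusted p = 0.016) and MT1E fell, with a log2 fold change of -0.21 (adjusted p = 0.01, edgeR), while MT1X had -0.09 and MT2A -0.12. SLC30A1 thus passed as higher than with DMSO under both compounds, whereas the 4 metallothioneins did so only under MS172. With fragment length as a covariate SLC30A1 did not pass for PK9328 (adjusted p = 0.146, edgeR). Its log2 fold changes for PK9328 over the 19 alternatives were 0.27 to 0.37. Shorter fragments and PK9328 cannot be told apart by group. Against PK9328 the 4 metallothioneins were higher with MS172 by log2 fold changes of 1.44 to 2.36 (adjusted p between 3.3e-18 and 1.2e-10, edgeR). Metallothionein genes are similar in sequence and the split of reads between them was not checked, so their single values are uncertain.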

How the data were processed

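Per the file headers, each of the 9 deposited tables gives the authors' TPM values and estimated counts of reads, with lengths, for 197653 transcripts. The authors' TPM values are scaled to effective length and to the library. FastQC 0.11.8 and hg38 are named in the submitters' processing notes; the quantification program is not given in the sources used here. Matching was done without version to GENCODE 29 (193348 matched; the unmatched held 0.356% to 0.382% of reads). Estimated counts were summed per gene and rounded to whole numbers. Groups and replicate numbers came from the sample titles.

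All 9 libraries entered 1 fit of edgeR 4.0.16 in R 4.3.3 (quasi-likelihood test, robust, TMM, filterByExpr by group, no replicate term, 6 residual degrees of freedom, common biological coefficient of variation 0.0439). Transcripts were fitted in the same way, with fewer alternatives (RLE size factors, a filter of 1 CPM in 3 libraries, a replicate block and each library left out). CPM values use TMM-scaled library sizes. Standard errors were derived from the F statistic, and intervals cover the spread between libraries only. The fit was tested on simulated data. Levels between genes are compared in TPM. Alternatives were DESeq2 1.42.0, limma-voom (limma 3.58.1), RLE size factors, a filter of 1 CPM in 3 libraries or none, a replicate block, length-scaled TPM, the compared libraries fitted alone, a fragment length covariate, a GC and length offset (mgcv 1.9.3) and each library left out. Fragment length was read from transcripts of 3000 bases or more, as the gap between length and effective length. Named genes are all 10 transporters, a few genes fixed by name and up to 4 genes of smallest p in each list. Transcripts were considered for description where they held at least 10% of their gene's TPM on average. Not all of these are described, and those that passed were named after their values were seen. The members and lists were chosen with earlier results of these data known. Some genes that the rule on likeness names are not reported here.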

Additional observations from a re-analysis of the deposited data

How the results depend on the processing

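Of 570 recomputed values for the 10 genes, 524 kept their side of the threshold, 42 lost their call, 3 gained one and 1 lost its call and reversed. A change of direction in values that passed in neither fit was counted as kept. For SLC39A1 with MS172 against DMSO, for example, log2 fold changes ran from -0.04 to 0.03. The reversal was SLC39A7 for PK9328 against DMSO with fragment length as a covariate (log2 fold change -0.061, adjusted p = 0.808, edgeR). With that covariate the genes passing were 178 for PK9328 against DMSO, where 2151 passed without it, and 2480 for MS172 against PK9328, where 6641 did; the transporters passing were 0 (2 at an unadjusted p under 0.05) and 3. The cause was not tested. Length-scaled TPM gave 1100 genes for PK9328 against DMSO. With each library left out, the genes passing were 3874 to 4897 for MS172 against DMSO, 1384 to 2215 for PK9328 against DMSO and 5651 to 6770 for MS172 against PK9328, and the transporters passing were 5 to 7, 3 to 4 and 5 to 8. The fewest for PK9328 against DMSO came without DMSO replicate 1 (1384) and without PK9328 replicate 2 (1400). Member transcripts passing were 3 to 4 for MS172 against DMSO, 0 to 2 for PK9328 against DMSO and 4 to 10 for MS172 against PK9328, and a filter of 1 CPM in 3 libraries gave 1 for PK9328 against DMSO.

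Same-numbered libraries did not deviate together (correlations of -0.057 to 0.017), so the numbers were not taken as pairs. With the replicate number as a block, 4597, 1884 and 6405 genes and 7, 3 and 8 transporters passed for MS172 against DMSO, PK9328 against DMSO and MS172 against PK9328. Among the 10 genes only the SLC39A7 call for PK9328 was lost under the block (adjusted p = 0.078), and among their transcripts those of SLC30A5-202 (0.071) and SLC39A6-204 (0.057) for MS172 against PK9328 and SLC30A5-206 (0.12) for MS172 against DMSO. Transcript values are limited by the reads that transcripts of a gene share, which were split by estimation.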

Other observations

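A list of 24 genes was mostly of iron, copper and manganese transport and storage, but also held others, such as SLC41A1, CNNM2 and ATP13A1. Of these 24 genes, 21 were tested with MS172 against DMSO, and 7 rose, 1 fell and 13 did not pass (median log2 fold change 0.08, edgeR). The share passing in either direction was near the 35.1% of all genes tested, but those divided into 17.9% higher and 17.2% lower. FTL, the light chain of the iron store ferritin, rose by 0.32, and TMEM165, a Golgi manganese transporter, rose by 0.24. TFRC, the transferrin receptor, fell by 0.19 on the log2 scale. SLC11A2, an importer of iron, had -0.12 (adjusted p = 0.29). With PK9328, 1 of the 21 tested rose and 1 fell, where 15.5% of all genes passed. SLC31A1, the copper importer, rose by a log2 fold change of 0.38, and ATP13A1 fell, with -0.23.

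Among the 5 genes whose pattern over the 9 libraries lay closest to that of SLC30A1, by the root mean square difference of centred log2 CPM among 11320 coding genes, were TXNRD1 (0.0727), HBEGF (0.0788) and BIRC3 (0.102), with a median of 0.575 over all genes compared. TXNRD1 had 298.9 CPM with MS172, 189.3 with PK9328 and 147.1 with DMSO. The closest to SLC39A10 were ZNF224 (0.0613), RTL10 (0.0673), JRK (0.073), LZTS1 (0.0833) and ZNF500 (0.0864), with a median of 0.483. ZNF224 had 4.53 CPM with MS172, 6.62 with PK9328 and 7.57 with DMSO.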
